A study of Mus musculus with 8 samples.

Results

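The genes described here gave lower signals in the lateral hypothalamus (LH) than in the arcuate (Arc), ventromedial (VMH), and dorsomedial (DMH) nuclei of the mouse hypothalamus. They were chosen by the measured values themselves: a probe was a member when it was well above background on all 6 arrays of the Arc, VMH, and DMH and lower on both LH arrays than on each of those 6. Of 24117 probes well above background on the 6 arrays, 2370 met this rule (9.83%), and they carried 1072 of the 11546 named genes tested (9.28%). The design holds 55681 probes and 20284 named genes in all. The low side of the LH is therefore a description of the probes selected, and no test is given for it. Only differences among the Arc, VMH, and DMH, in which the rule treats the arrays alike, were tested. The nuclei were cut by laser microdissection from female mice of 3 mo (C57BL/6 in the labels, C57BL/6J in the methods), for which the labels give no treatment or genetic change, and each nucleus was measured on 2 arrays, called LH1 and LH2 for the LH. The methods state that the RNA came from 2 mice, but not which array belongs to which mouse, so p-values measure the spread between these arrays, which may be technical. Before labelling, whole-transcriptome amplification was applied to the RNA, and all 8 arrays lay on 1 slide, on which the replicate number coincides with the row. All values are signals of a 1-color array, divided by the 75th percentile of their array, and they compare arrays for 1 probe and not probes with each other.

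The LH is a loosely bounded area through which the fibers of the medial forebrain bundle run, and it is known for the neurons that make hypocretin or melanin-concentrating hormone. The Arc, VMH, and DMH lie nearer to the midline, and their neurons are known to carry receptors for leptin, insulin, gut and pituitary peptides, and steroid hormones. In a bulk sample, fewer cells of a type and less RNA per cell cannot be told apart, so a low signal in the LH may stand for either.

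The labels of the nuclei were compared with their markers first. Agrp and Npy, the peptides of the Arc neurons that promote feeding, were highest on both Arc arrays, Nr5a1, which marks the VMH, on both VMH arrays, and Npvf, Grp, Prdm13, and Skor1, taken as DMH markers, on both DMH arrays. LH1 also measured these 4 DMH genes, at 140 to 406, and LH2 did not. Npvf was measured on VMH1 as well, at 438. Hcrt, the hypocretin precursor, gave 105970 and 116750 on the LH arrays, but also 55940 and 51283 on the DMH arrays, against at most 684 on the Arc and VMH arrays. Pmch, the precursor of melanin-concentrating hormone, gave 17650 and 17005 on the LH arrays, 16253 and 11631 on the DMH arrays, and 3938 and 3140 on the VMH arrays, and the Arc arrays did not measure it. The DMH arrays thus held RNA of both peptide genes that mark the LH, and the VMH arrays that of Pmch. The part of this overlap in the results below was not tested. Both LH arrays stood apart in quality. LH1 held 364 spots marked as outliers against 126 to 161 on each other array. LH2 had the lowest share of spots well above background, 47.1% against 48.4% to 52.7% on the other arrays. The log2 signals of LH1 and LH2 correlated at r = 0.936 across probes, whereas the replicates of the other nuclei correlated at 0.980 to 0.984. This correlation cannot tell which of the 2 LH arrays departs. Results that rest on 1 LH array are given with that array named.

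The differences that the rule selected were mostly small. Over the 2370 members the mean of the other nuclei exceeded the LH by a median of 0.75 log2 (1.68-fold), with the middle 50% between 0.52 and 1.1 log2, against a median of 0.01 log2 over all probes tested. In 712 members the difference was at least 2-fold, in 165 at least 4-fold, and in 30 at least 8-fold. The opposite rule, higher on both LH arrays than on each of the 6 others, was met by 2991 probes (12.4%). Low and high probes together were 44.2% low with the scaling used, 70.5% low without scaling, and 51.6% low when arrays were scaled to the median of the probes measured on all 8. Of the members, 68.9% also met the rule without scaling. At the edge of the rule, Atp6v0c, a subunit of the proton pump, gave 133110 on its lowest other array and 133090 on LH1 and was just inside. Olfr469, an olfactory receptor gene, lay just inside with 303.97 on its lowest other array and 303.94 on LH2. Just outside were Mup5, a major urinary protein gene with 196 on its lowest other array and on LH2, and a probe of Nsd2, a histone methyltransferase, with 1453 on both of these arrays.

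The 2 LH arrays differed in how low the members lay. Of the members, 1904 were well above background on both LH arrays, 199 only on LH1, 127 only on LH2, and 140 on neither. The largest differences came mostly from probes that 1 or both LH arrays did not measure: of the 165 members with a difference of at least 4-fold, LH1 alone did not measure 70, LH2 alone did not measure 24, neither measured 49, and both measured 22. Tm9sf4, a membrane protein of the endosomal system, gave 1593 to 2249 on the other arrays, 23.1 on LH1, and 1423 on LH2. The lowest LH1 signal among probes well above background was 79.3, so the mean difference of Tm9sf4 rests on an LH1 value below what was measured, and LH2 was 1.12 times lower than the lowest other array. Cldn13, a claudin, went the other way with 509 to 1239 on the other arrays, 241 on LH1, and 38.5 on LH2. Over all probes of the design with a signal on every array, 532 were well above background on every array but LH1, and 803 on every array but LH2. The same count lay between 30 and 409 for each of the Arc, VMH, and DMH arrays.

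**Figure D1:**
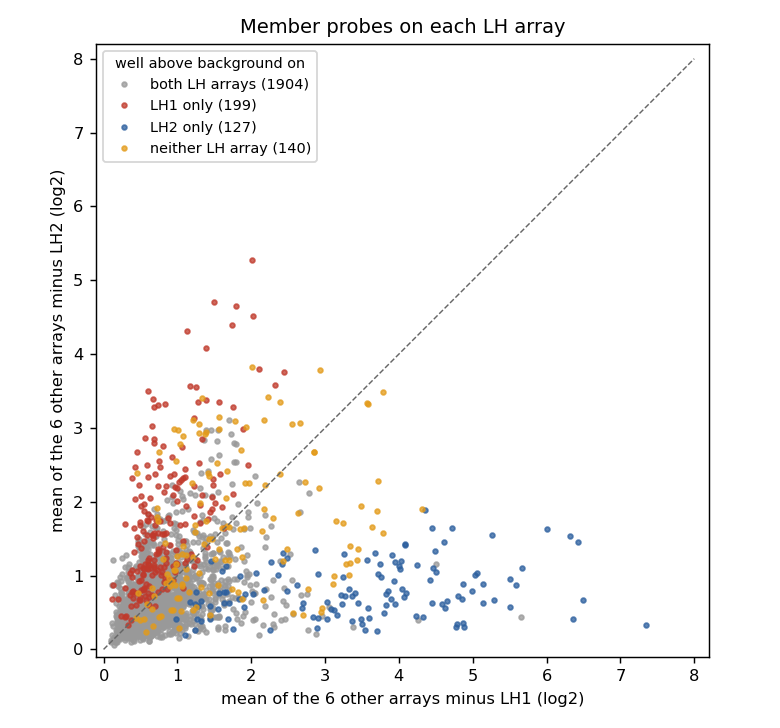
Each point is 1 of the 2370 member probes, with the mean log2 signal of the 6 other arrays minus LH1 on the x axis and minus LH2 on the y axis. Color gives the LH arrays on which the probe was well above background, and the dashed line marks equal differences; the 199 probes measured on LH1 only rise along the y axis, the 127 measured on LH2 only spread along the x axis, and most of the 1904 measured on both lie near the origin.

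On LH1 alone 5577 probes lay below all 6 other arrays, and 42.5% of these were also low on LH2. LH2 alone gave 5761, of which 41.1% were also low on LH1. A narrower set is the 1812 members (76.5%) that were measured on both LH arrays with less than a 2-fold difference between them, a limit chosen after the values were seen. Their median difference was 0.65 log2 (1.57-fold), 285 of them reached 2-fold, and 9 reached 4-fold.

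The list of receptors for hormones and peptides held a large share of low genes. It also holds partners that are no receptors themselves, the adaptors Irs2 and Irs4 and the Ramp proteins. Of its 44 genes tested, 13 had a member probe (29.5%), against 9.28% of all named genes, and the median difference over the brightest probe of each of the 44 was 0.23 log2, against -0.09 over all named genes. Judged without LH1 the count was 19 (43.2%, against 22.2% of all named genes), and without LH2 it was 13 (29.5%, against 23.0%). The share thus lay farther above that of all genes on LH2 than on LH1. The list was drawn up with earlier results of these arrays known.

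Sstr1 and Sstr4, receptors of the inhibitory peptide somatostatin, were both low in the LH. The Sstr1 signals were 2750 and 3925 in the Arc, 1253 and 1422 in the VMH, 847 and 777 in the DMH, and 266 and 622 in the LH. A further Sstr1 probe ran between 947 and 3526 on the other arrays and read 24.4 on LH1 and 1234 on LH2, so it was not a member. Sstr4 gave 2125, 1996, 1780, 2017, 774, and 1007 on the Arc, VMH, and DMH arrays in turn, 486 on LH2, and 23.4 on LH1, where it was not well above background. Both genes also differed among the other nuclei. Sstr1 was 2.02 ± 0.23 log2 (SE) higher in the Arc than in the DMH (limma, adjusted p = 0.00577), and Sstr4 1.22 ± 0.21 higher in the Arc than in the DMH (adjusted p = 0.0306), a call lost for Sstr4 in the F-test over the 3 nuclei without Arc replicate 1, Arc replicate 2, or DMH replicate 1. With all 8 arrays in one fit the F-test called neither gene (adjusted p = 0.0616 for Sstr1 and 0.816 for Sstr4).

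Irs4, an adaptor protein below the insulin receptor, and Glp1r, the receptor of the gut peptide GLP-1, were highest in the Arc and lowest in the LH. The Irs4 signals were 15222 and 16704 in the Arc, 4602 and 5364 in the VMH, 5856 and 5880 in the DMH, and 2769 and 3147 in the LH. Both tested probes of each gene were members. The Glp1r signals were 1746 and 2520 in the Arc, 576.5 and 702 in the VMH, 1048 and 779 in the DMH, and 329 and 430.5 in the LH. No LH array overlapped the others for either gene, as the rule requires. Within the other nuclei, Irs4 was 1.68 ± 0.19 log2 higher in the Arc than in the VMH (limma, adjusted p = 0.00189), and Glp1r 1.72 ± 0.26 higher (adjusted p = 0.00558). The Arc minus the DMH was 1.44 ± 0.19 log2 for Irs4 (adjusted p = 0.0112). For Glp1r it was 1.21 ± 0.26 and did not pass (adjusted p = 0.0586). The F-test call held for Irs4 whichever of the 6 arrays was left out, and was lost for Glp1r without Arc replicate 2 or VMH replicate 1.

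Oxtr, the oxytocin receptor, was low in the LH and was not called among the other nuclei. Its signals were 16931 and 11243 in the Arc, 19893 and 15026 in the VMH, 11910 and 11720 in the DMH, and 4400 and 6458 in the LH, a mean difference of 1.41 log2 (2.65-fold). The F-test among the Arc, VMH, and DMH gave an adjusted p of 0.396. Lepr, the leptin receptor, was dim in the LH, with 145 on LH1 and 61.7 on LH2, where it was not measured. Its other arrays gave 507 and 355 in the Arc, 191 and 254 in the VMH, and 1268 and 181 in the DMH. The DMH arrays lay at the opposite ends of this range, and a further Lepr probe ran from 115 to 417 on the other arrays, 163 on LH1, and 27.5 on LH2 and was not a member. The list had 7 more member genes, named outside the naming rule after their values were seen: Gpr165, Npbwr1, Oprl1, Rxfp3, Insr, Galr3, and Ntrk2, with mean differences from 0.13 log2 for Ntrk2, the receptor of brain-derived neurotrophic factor, to 1.03 log2 for Npbwr1, the receptor of neuropeptides B and W. Oprl1, the nociceptin receptor, gave 10863 to 15984 on the other arrays and 6915 and 6669 in the LH on its member probe. Its brighter probe read 18050 to 33236 on the other arrays and 15727 and 20796 in the LH and was not a member. Rxfp3, a relaxin family peptide receptor, gave 9879 to 14781 on the other arrays and 7684 and 6500.3 in the LH. Insr, the insulin receptor, had 1 member among its 3 probes, with 1850 to 2463 on the other arrays and 1142 and 1370 in the LH. Galr3, a galanin receptor, was not well above background on either LH array. Of the 13 genes, 5 differed among the Arc, VMH, and DMH by the F-test, namely Sstr1, Sstr4, Irs4, Glp1r, and Npbwr1. The same test called 7.69% of all probes tested and 6.50% of the members. Counted by gene, as the 5 of 13 are, it called a member probe in 112 of the 1072 member genes.

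**Figure D2:**
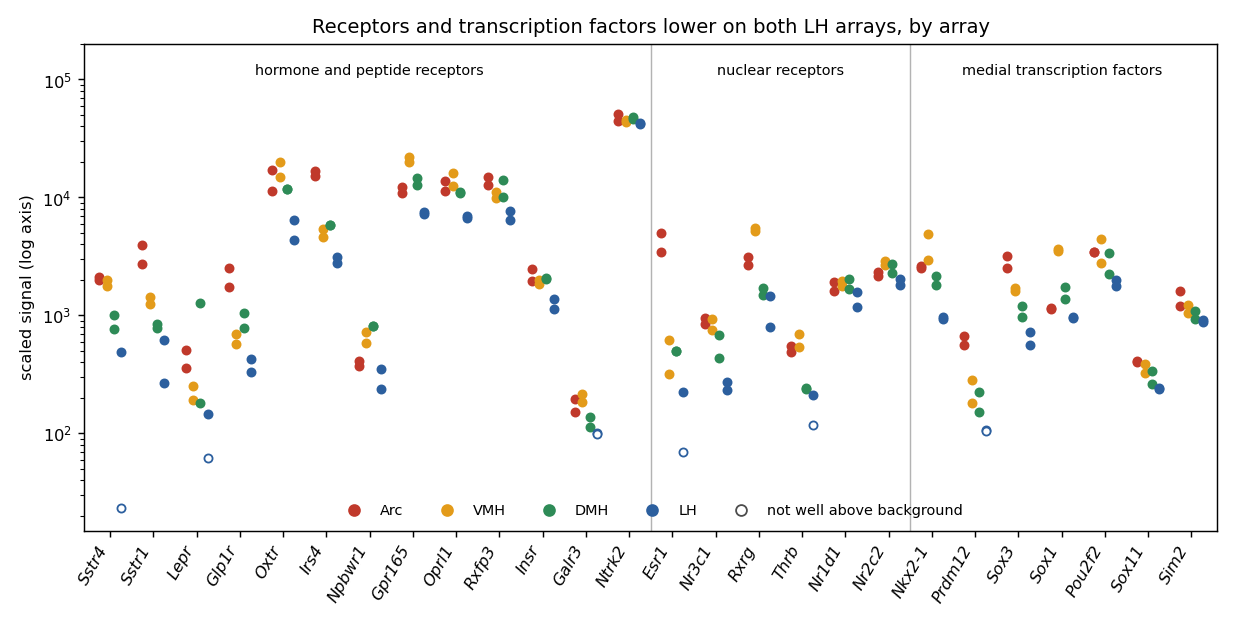
Scaled signal on a log axis for each of the 8 arrays of the 13 genes of the hormone and peptide receptor list and 7 transcription factor genes with a member probe and of the nuclear receptor genes reported here, with 1 dot per array and open dots where the probe was not well above background. By the rule both LH dots lie below the other 6 for every gene shown; the distance ranges from 1.00 times for Rxrg to 1.85 times for Nkx2-1 between the lowest other array and the higher LH array.

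Nuclear receptors are transcription factors, among them those that steroid, thyroid, and retinoid hormones bind. Their list also holds orphan receptors, the steroid-converting enzymes Cyp19a1 and Srd5a1, the coactivators Ncoa1 and Ncoa2, and Greb1, and it had a member probe in 7 of 28 genes tested (25%, against 9.28%), all 7 of them receptors. Without LH1 the count was 12 (42.9%, against 22.2%), and without LH2 it remained at 7 (25%, against 23.0%), close to the share of all named genes. The median difference over the 28 genes was 0.03 log2, against -0.09 over all named genes, and 4 of its genes met the opposite rule (14.3%, against 18.8%).

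Esr1, the estrogen receptor alpha, had the largest difference of the list. It gave 5000 and 3474 in the Arc, 620 and 316 in the VMH, 496 and 498 in the DMH, and 226 and 70.2 in the LH, where LH2 did not measure it. Both probes of Esr1 were members. Esr1 in the Arc exceeded the VMH by 3.23 ± 0.33 log2 (adjusted p = 0.00107) and the DMH by 3.07 ± 0.33 (adjusted p = 0.00465), while the difference between VMH and DMH did not pass (adjusted p = 0.860).

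Nr3c1, the glucocorticoid receptor, gave 955 and 840 in the Arc, 756 and 924 in the VMH, 439 and 682 in the DMH, and 233 and 275 in the LH on its member probe. Its other probe read 2808 and 3751 in the LH, 2864 and 3524 in the DMH, and 4128 to 6383 in the Arc and VMH. LH2 lay above both DMH arrays on that probe, which was not a member. The 2 probes thus disagree on the size and on the order of LH2 and the DMH. Thrb, a thyroid hormone receptor, and Rxrg, a retinoid X receptor, each had 1 member of 2 probes. The Thrb member gave 487 and 549 in the Arc, 697 and 538 in the VMH, 243 and 237 in the DMH, 118 on LH1, and 213 on LH2, and it was not measured on LH1. The Rxrg member gave 2655 and 3124 in the Arc, 5516 and 5176 in the VMH, 1479 and 1717 in the DMH, and 1475 and 799 in the LH, so LH1 all but equalled the lower DMH array. The VMH exceeded the DMH by 1.75 ± 0.20 log2 for Rxrg (adjusted p = 0.00369) and by 1.35 ± 0.21 for Thrb (adjusted p = 0.0132), and the F-test call of Thrb was lost without DMH replicate 1 or DMH replicate 2 and with all 8 arrays in one fit (adjusted p = 0.0828). The smallest differences of the list were those of Nr1d1, a repressor of the circadian clock, at 0.42 log2 and of Nr2c2, an orphan receptor named outside the rule, at 0.38 log2.

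Nkx2-1, a homeobox factor needed for the formation of the ventral forebrain, was low in the LH on 1 probe. The signals were 2533 and 2602 in the Arc, 4902 and 2943 in the VMH, 2173 and 1794 in the DMH, and 973 and 939 in the LH, a difference of 1.49 log2 (2.80-fold). LH1 and LH2 read nearly the same, and the F-test among the other nuclei gave an adjusted p of 0.132. Since Nkx2-1 belongs to the NK2 family and the nuclear receptors bind a short core site, promoters were searched for both. The NK2 site was taken as CACTTNA and the core site as AGGTCA, on either strand, in the 250 bases before the start of a gene. The promoters of Esr1, Irs4, and Oxtr, member genes described above that hold a match, are printed as examples 5′ to 3′ on the strand of the gene in RefSeq sequence of the build GRCm38.p6, with each match in capitals. They cover chr10:4611739-4611988 on the plus strand for Esr1, chrX:141725218-141725467 on the minus strand for Irs4, and chr6:112489826-112490075 on the minus strand for Oxtr. Promoters of Oprl1, Rxrg, and Thrb also hold a match and are not printed, and a further promoter of Esr1 holds none.
Esr1: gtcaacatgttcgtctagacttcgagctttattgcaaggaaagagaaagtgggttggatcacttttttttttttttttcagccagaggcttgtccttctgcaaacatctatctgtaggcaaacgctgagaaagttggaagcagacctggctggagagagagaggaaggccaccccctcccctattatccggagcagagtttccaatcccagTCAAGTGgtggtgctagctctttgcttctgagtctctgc
Irs4: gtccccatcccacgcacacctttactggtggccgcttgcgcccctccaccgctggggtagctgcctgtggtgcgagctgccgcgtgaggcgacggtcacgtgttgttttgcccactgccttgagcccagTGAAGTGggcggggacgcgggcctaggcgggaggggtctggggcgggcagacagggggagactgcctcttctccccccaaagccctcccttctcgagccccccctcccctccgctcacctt
Oxtr: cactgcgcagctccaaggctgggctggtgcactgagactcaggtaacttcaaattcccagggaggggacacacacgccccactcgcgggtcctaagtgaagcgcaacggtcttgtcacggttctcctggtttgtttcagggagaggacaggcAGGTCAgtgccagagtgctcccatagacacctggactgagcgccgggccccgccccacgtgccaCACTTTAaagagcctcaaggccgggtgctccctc
Counted in bases from the start of the gene to the first base of the match, the NK2 match lay at -39 in Esr1, -121 in Irs4, and -34 in Oxtr, and the core site of Oxtr at -98. A match of the NK2 site was held by 8.46% of the 1076 promoters of member genes, 7.37% of 10841 promoters of the other genes tested, and 10.1% of all 32851 promoters of the table. The core site was held by 11.2%, 10.8%, and 14.0%, and its extended form TCAAGGTCA, which the VMH factor Nr5a1 binds and which contains the core site, by 0.0929%, 0.295%, and 0.387%. The NK2 and core sites were thus about as frequent in members as in other tested genes, while the extended form stood in 1 member promoter and 32 of the others, and a match is a description of the sequence and not a binding site. Of the 1072 member genes, 850 had a promoter in the table.

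Among transcription factors of the medial hypothalamus, 7 of 32 genes had a member probe (21.9%, against 9.28%) and 7 met the opposite rule (21.9%, against 18.8%). Without LH1 and without LH2 the low count was 10 each (31.2%, against 22.2% and 23.0%). Sox3 and Sox1, factors of neural progenitors, were measured on both LH arrays. The Sox3 signals were 3212 and 2513 in the Arc, 1707 and 1596 in the VMH, 967 and 1211 in the DMH, and 558 and 722 in the LH. Those of Sox1 were 1128 and 1145 in the Arc, 3494 and 3656 in the VMH, 1750 and 1386 in the DMH, and 943 and 976 in the LH. The means of the 2 genes thus peaked in different nuclei. For Sox3 the Arc minus the VMH was 0.78 ± 0.22 log2 and did not pass (limma, adjusted p = 0.0604). Sox3 was 1.39 ± 0.22 log2 higher in the Arc than in the DMH (adjusted p = 0.0217), with the F-test call lost without Arc replicate 1 or DMH replicate 1, whereas for Sox1 the Arc minus the VMH was -1.65 ± 0.20 (adjusted p = 0.00238). Prdm12, a zinc finger factor, gave 561 and 664 in the Arc, 285 and 182 in the VMH, 225 and 152 in the DMH, and was not well above background on either LH array, so the other nuclei exceeded the LH by at least 2.49-fold; its F-test call was lost without either Arc array. Pou2f2, Sox11, and Sim2 completed the list with differences of 0.76, 0.56, and 0.38 log2. Sim2, a factor of hypothalamic development, was named outside the rule.

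Of 52 genes named for potassium channels, 10 had a member probe (19.2%, against 9.28% of all named genes) and 8 met the opposite rule (15.4%, against 18.8%). Kcnip2, a partner of the channels that carry transient current, gave 448 and 474 in the Arc, 1038 and 867 in the VMH, 630 and 688 in the DMH, and 206 and 264 in the LH. Kcnj4, an inward rectifier, gave 1433 and 1024 in the Arc, 2344 and 2821 in the VMH, 1049 and 936 in the DMH, and 780.4 and 641 in the LH. Both had their highest mean in the VMH. The Arc minus the VMH was -1.04 ± 0.20 log2 for Kcnip2 (limma, adjusted p = 0.0147) and -1.09 ± 0.23 for Kcnj4 (adjusted p = 0.0234). The VMH minus the DMH passed for Kcnj4 (1.38 log2, adjusted p = 0.0187) but not for Kcnip2 (0.53 log2, adjusted p = 0.240). The F-test call of Kcnip2 was lost whichever of the 6 arrays was left out and with all 8 arrays in one fit (adjusted p = 0.0770), and that of Kcnj4 without either VMH array. Kcnc1 had 1 member among 3 probes and the other 2 met the opposite rule, so this gene has no single direction. Kcnq1ot1, listed here by its name, is a noncoding RNA of an imprinted region and no channel.

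Genes of GABA and glutamate transmission had 6 members of 45 (13.3%, against 9.28%), subunits of the GABA type A receptor among them. More of them, 9 genes (20%, against 18.8%), met the opposite rule, and the median difference of the list was -0.26 log2. Gabra5 gave 866 and 720.4 in the Arc, 1586 and 1836 in the VMH, 654 and 603 in the DMH, and 419.5 and 509 in the LH. Gabrq, Gabrg1, and Gabrg3 had differences of 1.03, 1.34, and 0.79 log2. For Gabrg1 and Gabrg3 a further probe did not meet the rule.

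Axon guidance genes had 6 members of 45 (13.3%, against 9.28%), and 10 met the opposite rule (22.2%, against 18.8%). Efnb1, an ephrin that guides growing axons by contact, gave 3219 and 2989 in the Arc, 3000 and 3025 in the VMH, 1129 and 926 in the DMH, and 645 and 884 in the LH. Arc and VMH differed by 0.04 log2 (adjusted p = 0.925), and each exceeded the DMH, by 1.60 ± 0.20 log2 (adjusted p = 0.00792) and 1.56 ± 0.20 (adjusted p = 0.00564). Plxnc1, a semaphorin receptor, was highest in the Arc with 6424 and 5421, and read 2479 and 2346 in the VMH, 3971 and 4395 in the DMH, and 1890.3 and 1632 in the LH. Imprinted genes, which are expressed from 1 parental copy, had 6 members of 42 (14.3%, against 9.28%) and 3 on the opposite side (7.14%, against 18.8%). Zim1 read 808 to 1966 on the other arrays and 623 on LH2, but was not measured on LH1 at 26.6. Plagl1, a growth-restraining zinc finger factor, had 1 member of 4 probes, with 2783 to 7737 on the other arrays and 1248 and 614 in the LH, and its brightest probe read 96575 and 124650 in the LH within the 53447 to 233450 of the others.

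Of the peptide genes 2 were low. Pomc, the precursor of melanocyte-stimulating hormone and an Arc gene, gave 40403 and 43108 in the Arc, 4049 and 3865 in the VMH, 1554 and 1447 in the DMH, and 1004 and 1299 in the LH. Its membership turns on the DMH, since the higher LH array was 1.11 times below the lower DMH array. Pdyn, the dynorphin precursor, gave 2194 and 3429 in the Arc, 2755 and 3911 in the VMH, 3035 and 2588 in the DMH, and 1708 and 1246 in the LH. Of 28 peptide genes tested 2 were low (7.14%, against 9.28%) and 5 met the opposite rule (17.9%, against 18.8%), Hcrt and Tac1 among them. Genes of peptide processing and secretory granules had 9 genes of 30 on the opposite side (30%, against 18.8%) and 1 low gene, Baiap3, a protein of dense-core vesicle traffic with 7195 to 11344 on the other arrays and 4893 and 4479 in the LH.

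Clock and immediate early genes had 3 members of 26 (11.54%, against 9.28%), Arntl, Per3, and Ier2. Per3, a period gene, gave 3472 to 4685 on the other arrays and 2530.2 and 1948 in the LH, and Arntl, the partner of CLOCK, 508 to 866 on the others, 454 on LH2, and no measurement on LH1. Ribosomal protein genes had 2 of 77 (2.6%, with 19.5% on the opposite side), Rpl6 and Rps3, each with 1 member probe and others outside the rule. Cadherins and synaptic adhesion genes had 2 of 54 (3.70%), with 18.5% on the opposite side. Monoamine and muscarinic receptors had 1 of 17, the histamine receptor gene Hrh1, and 5 on the opposite side (29.4%, against 18.8% of all named genes). The member probe of Hrh1 was dim, with 236 to 730 on the other arrays. Its brighter probe read 1840 and 1206 in the LH within the 1101 to 5460 of the others and was not a member.

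Markers of oligodendrocytes, their precursors, astrocytes, microglia, and endothelial cells met the opposite rule more often than the 18.8% of all named genes. All 14 oligodendrocyte genes tested had a probe higher on both LH arrays than on each other array, with a summed signal of 252490 to 288720 in the LH against 34326 to 88571 elsewhere. Of these 14, only Mbp, a myelin protein, also had a member probe: that probe read 1328 and 1188 in the LH against 1498 to 3470, while another Mbp probe read 28908 and 29585 against 4534 to 16302. Astrocyte genes had 0 low and 11 high of 18, precursors of oligodendrocytes 0 low and 8 high of 9, microglia 1 low and 8 high of 14, and endothelial cells 1 low and 6 high of 13. The summed signal of the astrocyte genes was 246710 to 252350 in the LH against 134310 to 196530 elsewhere, that of the precursors 64963 to 70849 against 15184 to 27931, and that of the endothelial genes 48240 to 53343 against 27123 to 38859. The summed signal of the microglia genes was not higher, with 142930 to 190070 in the LH against 188540 to 226130, although the median difference of the list was -0.53 log2. A large part of this sum is the member probe of Csf1r, a receptor of microglia, with 67652 and 63119 in the LH against 84884 to 108110, and the 2 other Csf1r probes were not members. Ependymal and tanycyte genes had 1 low and 3 high of 11, mural and leptomeningeal genes 0 low and 2 high of 8, and choroid plexus genes 1 low and 0 high of 4, the low ones being Col23a1 and Clic6. The high shares of the ependymal and mural lists (27.3% and 25%) lay nearer to that of all genes, and the summed choroid plexus signal was lower in the LH, at 3874 to 4104 against 5824 to 8704. Neuron markers had 2 low and 4 high of 17, with a summed signal of 573560 to 585560 in the LH within the 478190 to 599400 of the others. The 2 low ones were Uchl1, with 21083 to 30228 on the other arrays and 8114 and 16097 in the LH, and 1 probe of Map2. The part of these cell types in the low signals of the members was not tested.

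**Figure D3:**
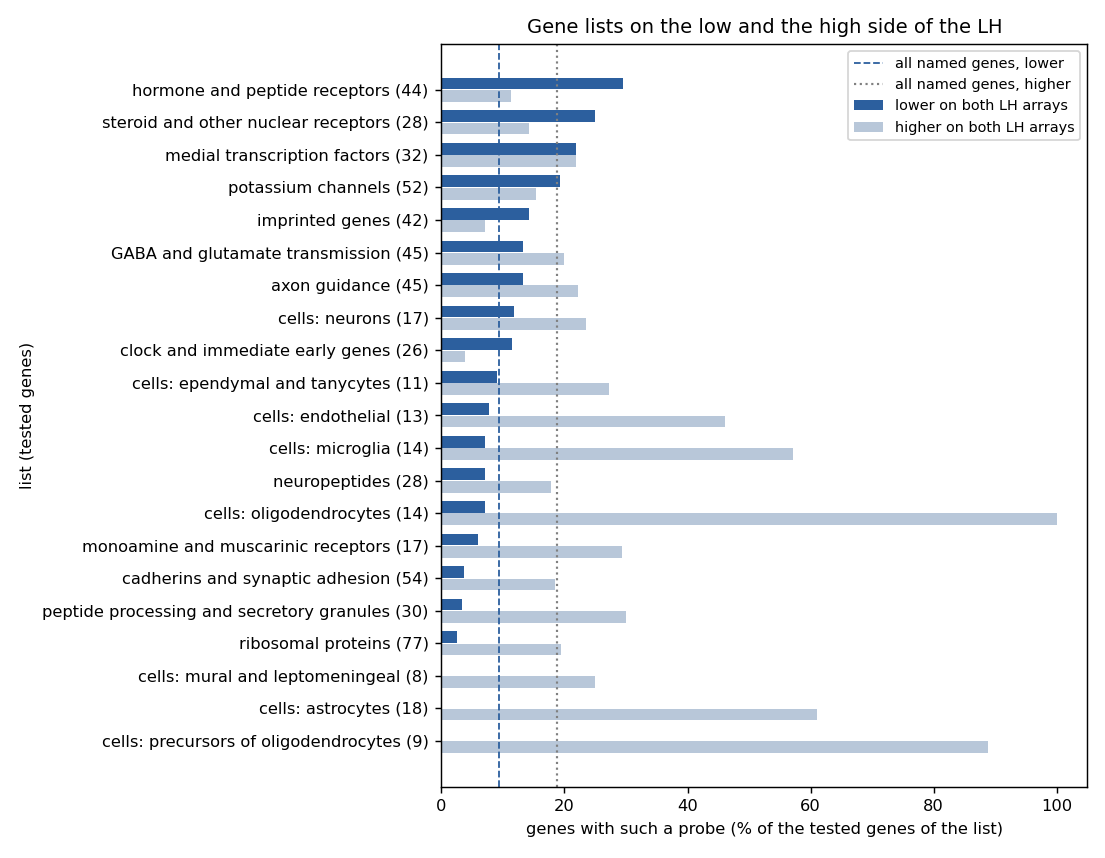
Share of the tested genes of each list, in percent, with a probe lower (dark bars) or higher (light bars) on both LH arrays than on each of the 6 others, for lists with at least 8 tested genes, whose number stands in parentheses. The dashed and dotted lines give the shares over all 11546 named genes, 9.28% and 18.8%; hormone and peptide receptors, nuclear receptors, medial transcription factors, and potassium channels lead the low side, and oligodendrocyte genes reach 100% on the high side.

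Among the members measured on both LH arrays, Traip, a ubiquitin ligase of DNA replication, had the largest difference of a named gene, 2.83 log2, but it read 164 on LH1 and 1663 on LH2 against 2448 to 8840 elsewhere. Some of the next largest were even between the LH arrays. Clic6, a chloride channel protein known from choroid plexus, gave 1288 and 1856 in the Arc, 3267 and 3262 in the VMH, 2030 and 2573 in the DMH, and 496 and 641.5 in the LH, 2.01 times below the lowest other array. Esyt3, a protein of contacts between the endoplasmic reticulum and the cell membrane, gave 3665 and 3524 in the Arc, 3314 and 4198 in the VMH, 2863 and 2299 in the DMH, and 917 and 832 in the LH, and both of its probes were members. The higher LH array lay 2.51 times below the lowest other array, the widest such gap among the 1904 members measured on both, and the F-test among the other nuclei gave an adjusted p of 0.259. Cym, a gastric protease gene with 586 to 1785 on the other arrays and 171 and 297 in the LH, and Syngr4, a synaptogyrin with 5655 to 21573 against 2884 and 1713, also differed less than 2-fold between the LH arrays. Less even were Chmp3, Tsc22d1, and Hpcal1, which read 194, 1371, and 206 on LH1 and 2808, 11540, and 1154 on LH2, and each had another probe that did not meet the rule, which for Chmp3 met the opposite one.

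Where neither LH array measured a gene only an approximate bound can be given. Msln, mesothelin, gave 934 and 1066 in the Arc, 978 and 812 in the VMH, and 573 and 602 in the DMH, so that the other nuclei were at least 6.84-fold higher than the LH. Otog, a gene of the inner ear matrix, was at least 3.54-fold higher, with 222 to 668 on the 6 arrays. The 8 genes next in order (Glipr1, Intu, Dbpht2, Fbxw19, Lpar2, Catsperg2, Bpifb1, and Fgd3) had bounds from 2.57-fold to 3.41-fold, with signals between 155 and 899 on the other arrays, so all 8 were dim.

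Within the Arc, VMH, and DMH the members leaned away from the DMH. The DMH had the lowest mean of the 3 nuclei in 1110 members (46.8%), against 30.6% of all probes tested and 18.0% of the probes on the high side. The Arc had the highest mean in 1154 members (48.7%, against 37.6% of all tested), the VMH in 863 (36.4%, against 39.2%), and the DMH in 353 (14.9%, against 23.1%). The DMH was therefore most often the lowest nucleus after the LH. The DMH arrays also carried the Hcrt and Pmch signals given above. LH2 correlated with the DMH arrays at 0.9535 and 0.963 and with the VMH arrays at 0.943 and 0.946. With Arc1 and Arc2 it correlated at 0.928 and 0.940. All but the value of Arc1 lay above the 0.936 of LH1 and LH2, so exceeding that value was not particular to the DMH. The part of shared or neighboring tissue in the order of the nuclei was not tested.

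**Figure D4:**
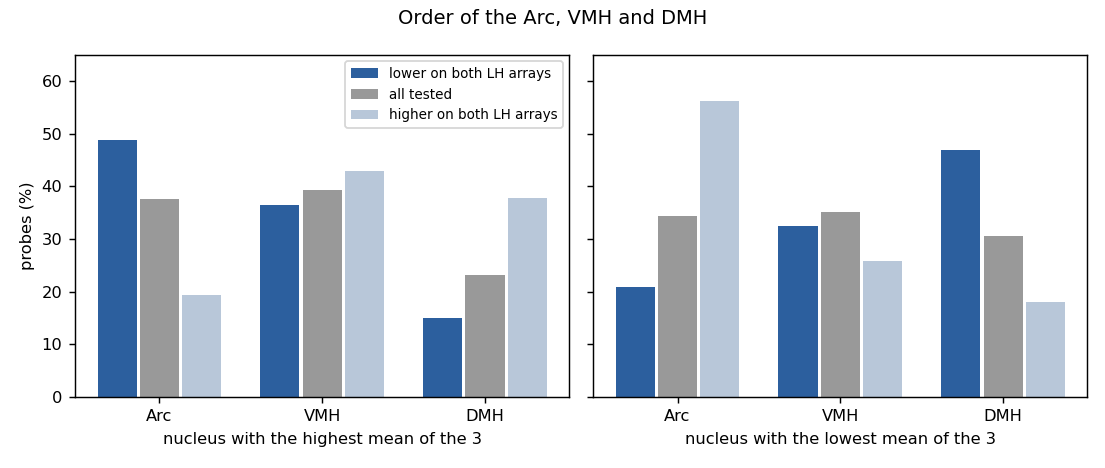
Percent of probes in which the Arc, VMH, or DMH had the highest (left) and the lowest (right) mean log2 signal of the 3, for the 2370 probes lower on both LH arrays, the 24117 tested, and the 2991 higher on both LH arrays. The low set was most often highest in the Arc (48.7%) and lowest in the DMH (46.8%), and the high set most often lowest in the Arc (56.2%).

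By limma's F-test over the 6 arrays, 154 members differed among the Arc, VMH, and DMH at an adjusted p under 0.05 (6.50% of members, against 7.69% of all probes tested), and 399 did at an unadjusted p under 0.05. The members were thus not called more often than other probes. The pair Arc and VMH differed in 134 members (5.65%, against 9.72%), Arc and DMH in 50 (2.11%, against 1.8%), and VMH and DMH in 89 (3.76%, against 2.99%). Of the 154, the VMH was highest in 87 (56.5%, against 54.0% of all probes called), the Arc in 62 (40.3%, against 28.2%), and the DMH in 5 (3.25%, against 17.8%). Without any 1 of the 6 arrays the count of 154 became 71 to 119, with all 8 arrays in one fit 66, and by a one-way ANOVA per probe 1.

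Mia, Socs2, and Col23a1 were, like Pomc and Esr1, highest in the Arc. Mia, a secreted protein known from cartilage and melanoma, gave 6937 and 7086 in the Arc, 426 and 368 in the VMH, 521 and 633 in the DMH, 234 on LH1, and 97.5 on LH2, where it was not measured. It was 4.15 ± 0.20 log2 higher in the Arc than in the VMH (adjusted p = 5.16e-05). Socs2, an inhibitor of cytokine and growth hormone signalling, gave 1292 and 1828 in the Arc, 399 and 315 in the VMH, 266 and 307 in the DMH, and 200.8 and 247 in the LH on its member probe, and its 2 other probes were not members. Col23a1, a membrane collagen, read 1352 and 1394 in the Arc, 262 to 352 in the VMH and DMH, 135 on LH2, and 24.5 on LH1, where it was not measured. Its F-test call was lost with all 8 arrays in one fit (adjusted p = 0.164).

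Gda, guanine deaminase, led in the VMH with 21279 and 18260, against 2356 and 1791 in the Arc, 1737 and 2578 in the DMH, and 1137 and 1210 in the LH. The VMH exceeded the DMH by 3.22 ± 0.26 log2 (adjusted p = 0.000958). Rgs14, a regulator of G protein signalling, gave 1610 and 1594 in the VMH, 467 and 441 in the Arc, 396 and 301 in the DMH, and 149.6 and 159 in the LH. For both genes LH1 and LH2 lay close together. Tnfrsf8 and Ccdc88b were also highest in the VMH, with 1496 and 2646 for Tnfrsf8, a receptor of the TNF family, and 1634 and 1247 for Ccdc88b, and LH1 measured neither. The F-test call of Tnfrsf8 was lost with all 8 arrays in one fit (adjusted p = 0.207).

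Ppp1r17, a phosphatase inhibitor known from Purkinje cells, was 1 of the 5 called members that were highest in the DMH. It gave 466 and 409 in the Arc, 394 and 464 in the VMH, 1708 and 2238 in the DMH, 184 on LH1, and 126 on LH2, which did not measure it. The Arc minus the DMH was -2.16 ± 0.22 log2 (adjusted p = 0.00400) and the VMH minus the DMH -2.19 ± 0.22 (adjusted p = 0.00208). It was one of 18 that were called whichever of the 6 arrays was left out, of the 41 named members that the F-test called. Syt10, a synaptotagmin with 3568 and 2484 in the DMH against 970 to 1789 in the Arc and VMH, was not called (adjusted p = 0.0715).

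**Figure D5:**
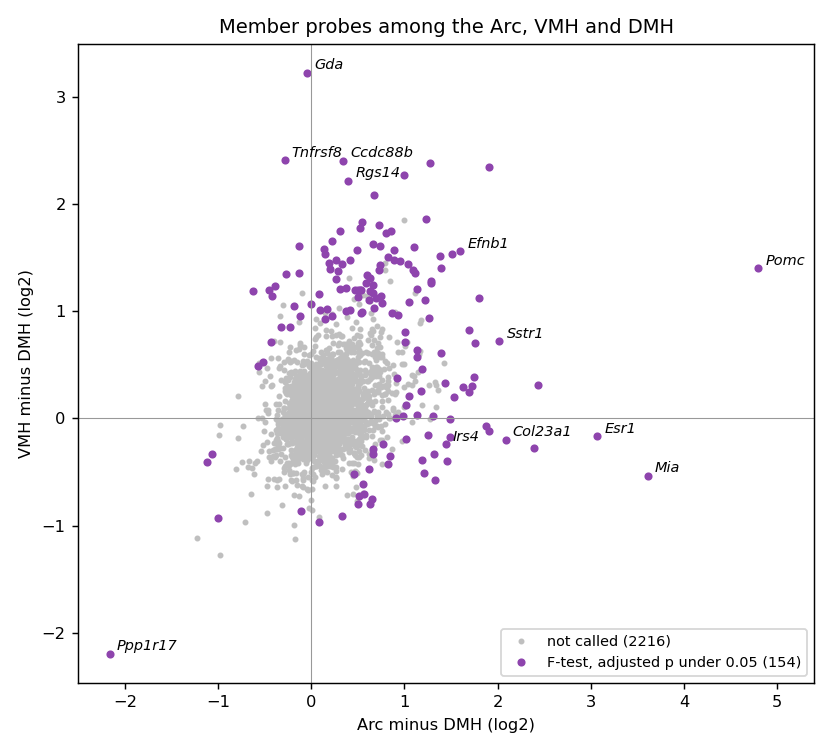
Difference of the Arc (x axis) and the VMH (y axis) from the DMH, in log2 signal, for the 2370 member probes, with the 154 called by the F-test in purple and several named genes labelled by their member probe. Most members lie above or to the right of the lines at 0, and the 353 highest in the DMH, Ppp1r17 among them, lie below 0 on both axes.

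The member set held many probes with no gene name. Of the 2370 members 1237 (52.2%) had none, against 38.1% of all probes tested and 20.1% of those on the high side. Probes that the design names by a chromosome position alone made up 768 members. Of such probes tested, 15.3% were low on both LH arrays and 5.0% were high, whereas of the probes with a RefSeq accession 7.71% were low and 15.7% high. Dim probes were low somewhat more often, with 11.53% among the 25% of probes with the lowest mean signal over the 6 arrays and 7.66% among the 25% with the highest, but the position-named probes exceeded the RefSeq probes in each of the 4 signal classes (13.5% against 9.23% in the lowest, 13.8% against 6.28% in the highest). What these positions transcribe was not analysed here.

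Probes of a gene did not always agree. Of 388 member genes with several tested probes, all were members in 43. The other 430 probes of these genes were lower in the LH mean in 281 cases (65.3%, against 50.9% of all probes tested), with a median difference of 0.13 log2, and 21 of them met the opposite rule. For 684 member genes only 1 probe was tested.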

How the data were processed

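Laser-microdissected Arc, VMH, DMH, and LH of female mice (2 arrays each) were hybridised to a 1-color Agilent mouse design. The authors deposited scanner output of Feature Extraction (10.7.3.1 in the file headers, 11.5.1.1 in the processing notes), whose red processed signal is a background-corrected intensity. The labels name Cy3 as the dye, whereas the labelling protocol names Cy5 and the signals deposited are red. Outlier spots and control spots were left out, spots of 1 probe were averaged, and signals were divided by the 75th percentile of their array. The number of arrays limits the precision. A gene name was found for 26762 of the 28390 probes that carry a RefSeq accession (94.3%). Differences among the Arc, VMH, and DMH were fitted on log2 values of the 6 arrays in limma 3.58.1 under R 4.3.3, with 3 residual and 5.354 prior degrees of freedom and Benjamini-Hochberg adjustment over 24117 probes, after the step was tested on simulated data. Named genes were the largest differences (20 measured on both LH arrays, 10 bounds on neither), up to 6 members of each list, nucleus markers, the edges of the rule (2 and 2), the 4 leading members of each nucleus, the 6 of the 100 largest that varied least among the other nuclei, and the 4 that differed most between the LH arrays each way. An "at least" fold sets the other nuclei against the LH signal or, where higher, the dimmest signal that the same array still measured. Such a bound is approximate, since a probe can read above that signal without being well above background. Thrb did so with 118 on LH1, where the dimmest measured signal was 79.3. Members and lists were chosen with earlier results of these data known. Some members are not reported here by name. Alternatives were other scalings, background correction, filters, margins, models, and each array left out.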

Additional observations from a re-analysis of the deposited data

How the results depend on the processing

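Of the log2 differences of the named members, that of Atp6v0c became -0.057 after quantile normalization, and no other changed sign under another scaling or background correction. The remaining alternatives could not turn a sign, since the rule fixes it. Of the 2370 member probes, 68.9% met the rule without scaling, 84.1% after quantile normalization, and 72.6% after normexp correction. A margin of 1.5 times between the LH and the lowest other array left 246 probes and a margin of 2 times 61, and leaving out 1 array gave 2548 to 5780, the upper values coming from the LH arrays. The median difference of 0.75 log2 was 0.89 without scaling, 0.71 after quantile normalization, 0.55 after normexp correction, 0.84 with no filter on dim probes, 0.67 for probes measured on all 8 arrays, and 0.69 to 0.77 with 1 array left out. The 154 members that differed among the Arc, VMH, and DMH became 71 with no filter, 66 with all 8 arrays in one fit, 1 by a one-way ANOVA per probe (345 unadjusted), 237 at an adjusted p under 0.1, and 71 to 282 with 1 array left out. Among the 1812 members with even LH arrays, an alternative chosen after seeing the data as were those without 1 LH array, the count was 92. Of 108 named members, 46 had a pair of nuclei that differed. Some of these genes were named because they led in 1 nucleus, so this count gives no rate for all members. Over all 2370 members, Arc and VMH differed in 5.65% (9.72% of all probes tested), Arc and DMH in 2.11% (1.8%), and VMH and DMH in 3.76% (2.99%). The count of 46 became 21 with no filter and 21 with all 8 arrays in one fit. It was 28 of the 68 named members measured on all 8 arrays, and 26 to 34 with 1 array left out. The causes were not tested. Replicate numbers are shared by the labels but nothing ties them to animals, and the differences between replicates 1 and 2 correlated at 0.04 to 0.36 among the Arc, VMH, and DMH. With the replicate block 211 members were called and 54 named ones, and 3593 probes met the rule against arrays of their own replicate number.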
